A study of Mus musculus with 56 samples.

Results

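The samples described here are the 9 GTML medulloblastomas with the highest and the 9 with the lowest level of Mki67, the gene of the proliferation antigen Ki-67, out of 28 ranked tumours. They were chosen from a measured value: the tumours were ranked by the log2 level of the only Mki67 probe on the array (probe 6971848), and the ranks were cut at 9 from either end. The whole series holds 56 arrays, of which 32 are GTML tumours; tumours 20, 22, 30 and 31 were left out of the ranking by their numbers, and the 10 ranked tumours between the extremes belong to neither side. The GTML tumours came from FVB/N mice of the GTML model and were hybridised as tissue RNA on Affymetrix whole-transcript arrays. In GTML mice the tetracycline transactivator is made under the promoter of a glial glutamate transporter and switches on a human MYCN transgene, so that both sides carry the same oncogene. The labels give no age, sex or tumour site, and both sides belong to 1 labelled group, so that "Mki67-high" and "Mki67-low" are names for the ends of a ranking and not for treatments. Another 9 arrays of orthotopic tumours, grown from transplanted neural stem cells with a mutation-stabilized N-Myc on the same FVB/N background, were used once as tumours that the ranking had not seen (3 each of cerebellar origin at embryonic day 16, cerebellar origin at postnatal day 0 and forebrain origin at postnatal day 0). Replicate 3 of embryonic day 16 has a cell type label that reads like that of a culture. It was kept as a tumour by its title and tissue label. Each tumour has 1 array, the labels call them biological replicates, and precision is limited by how many arrays there are.

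Ki-67 is a nuclear protein that coats mitotic chromosomes and is made in cycling cells but not in resting ones, which is why pathologists count it as a measure of growth. Its gene belongs to a large set that is transcribed in a wave in each cell cycle. Genes for the start of S phase are mostly driven by E2F factors, and genes for G2 and mitosis are mostly held down in resting cells by the DREAM complex, which binds the cell cycle homology region (CHR), and driven later by B-Myb and its partners. In a piece of tumour tissue the summed level of such genes follows the share of cells that are cycling and how much RNA each of them holds, and the arrays cannot tell fewer cells of a type from less RNA per cell.

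Mki67 ran from 8.53 to 10.15 on the log2 scale across the 28 tumours. In the Mki67-high tumours it had its lowest value at 9.49, its median at 9.68 and its highest at 10.15. The Mki67-low tumours had their lowest at 8.53, their median at 9.21 and their highest at 9.32. These values chose the sides and are given as a description. At the upper cut, tumour 11 just inside stood at 9.49 and tumour 12 just outside at 9.47. At the lower cut, tumour 4 just inside stood at 9.32 and tumour 14 just outside at 9.34. The 10 tumours between the extremes lay within 9.34 to 9.47, so that most of the range is held by the ends, tumour 9 at the top and tumours 21 and 18 at the bottom. The tumours left out by number stood at 4.86, 5.96, 7.88 and 10.16.

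**Figure D1:**
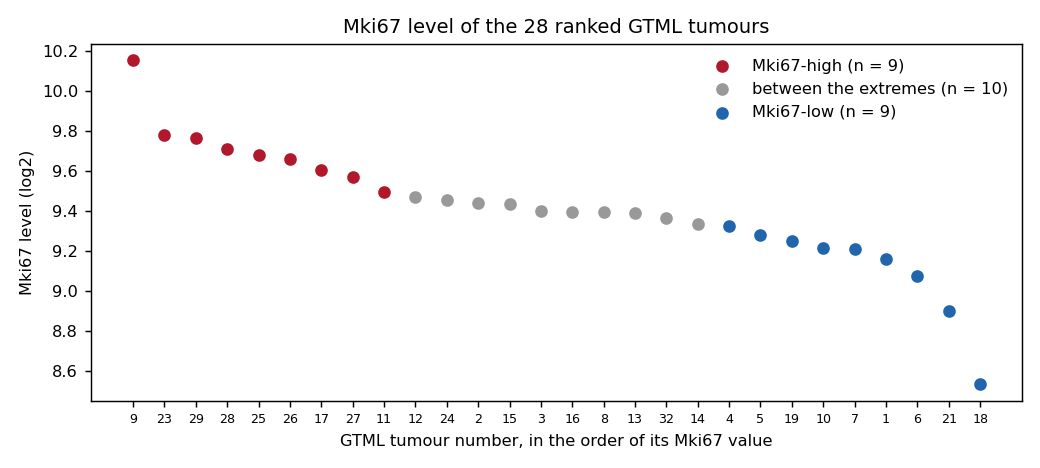
Log2 level of Mki67 (vertical axis) in each of the 28 ranked GTML tumours (horizontal axis, tumour numbers from the highest value to the lowest). Tumour 9 at 10.15 and tumour 18 at 8.53 are the ends, and the 10 grey tumours lie within 9.34 to 9.47.

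Tumour 18 stood apart. Its mean level over the mitosis list was 8.82, against 9.41 to 10.06 in the other 27, and over the DNA replication list it was 9.22, against 9.74 to 10.45. It also held the highest mean levels of the microglia, interferon and antigen presentation lists (9.33, 7.75 and 9.37, against at most 9.16, 7.59 and 9.18 elsewhere). Calls over the 28 tumours are given with and without it, and so are single values that it moved strongly. Of the measures of a whole array, the interquartile range of the log2 values was wider in Mki67-high tumours (mean 3.24 ± 0.08 against 3.12 ± 0.13 in Mki67-low tumours, SD, n = 9 each; exact permutation test, two-sided, p = 0.0353). The array medians averaged 7.96 in each (p = 0.94 by the same exact test) and the share of blank values 2.38% in Mki67-high tumours against 2.06% in Mki67-low tumours (exact p = 0.186). A mean level of astrocyte, oligodendrocyte, neuron, microglia and endothelial markers was 7.81 ± 0.14 in Mki67-high tumours and 8.01 ± 0.27 in Mki67-low tumours (SD, n = 9 each; exact p = 0.0618). Over the 28 tumours the interquartile range had r = 0.59 with Mki67 and the marker mean r = -0.47. Fits were repeated after quantile normalization and with that marker mean as a covariate. Beyond these fits, the part of the array spread and of the other cell types in the results was not tested.

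Between the extremes, every tested gene of mitosis, DNA repair and DNA replication had a higher mean level in the Mki67-high tumours and every tested astrocyte gene a lower one, but no single gene passed the test at the threshold set. Of 11426 genes tested with limma, 0 (0%) were higher and 0 (0%) lower at an adjusted p of 0.05, and the smallest adjusted p was 0.0571. When Mki67 itself was kept among the p-values adjusted, 3 genes passed, Kif11, Ccdc18 and Rad50, with an adjusted p of 0.0428 each. At an unadjusted p of 0.05 there were 962 genes higher (8.42%) and 1056 lower (9.24%), and at an adjusted p of 0.1 there were 80 higher and 39 lower. The groups did not overlap at all for 10 genes, all higher in Mki67-high tumours (0.0875% of genes tested), and for 0 genes in the other direction (0%). The median difference over all genes was close to 0 (-0.0017), and 5657 of the 11426 were positive. Below, a difference is the mean log2 level of Mki67-high tumours minus that of Mki67-low tumours.

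Kif11, the kinesin that pushes the spindle poles apart, had the smallest p. Its level ran from 10.18 over a median of 10.37 to 10.61 in Mki67-high tumours, and from 9.63 over 9.92 to 10.11 in Mki67-low tumours. The groups did not overlap (difference 0.45, SE 0.07, limma adjusted p = 0.0571). Rad50, which clamps broken DNA ends within the Mre11 complex, ran from 8.81 over 9.10 to 9.21 in Mki67-high tumours and from 8.20 over 8.62 to 8.94 in Mki67-low tumours. The highest Mki67-low tumour lay above the 2 lowest Mki67-high tumours, and otherwise the groups were apart (difference 0.50, SE 0.09, limma adjusted p = 0.0571). Ccdc18, a coiled-coil protein, had a median of 7.03 in Mki67-high tumours and 6.43 in Mki67-low tumours (difference 0.72, SE 0.12), with no overlap. Gen1, a nuclease that cuts joined DNA strands after recombination, had a median of 9.45 in Mki67-high tumours and 8.74 in Mki67-low tumours (difference 0.75, SE 0.14). Alpl, the alkaline phosphatase of bone, liver and vessels, had a median of 8.37 in Mki67-high tumours and 7.85 in Mki67-low tumours (difference 0.49, SE 0.09). The limma adjusted p was 0.0571 for Ccdc18 and 0.061 for Gen1 and Alpl, and with Kif11 and Rad50 these are the 5 genes of smallest p on the higher side.

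The other genes without overlap, besides Kif11 and Ccdc18, were named because of that and after their values had been seen. Smc5 (difference 0.32), of the Smc5/6 complex that guards replicating chromosomes, and Mdc1 (0.40), which marks chromatin around DNA breaks, belong to genome upkeep. Knstrn (0.48), a spindle protein, and Cep55 (0.49), a protein of the bridge between daughter cells, belong to division. So do Diaph3 (0.57), a formin that assembles actin, and Poc5 (0.27), a centriole protein. Cip2a (0.43), an inhibitor of the phosphatase PP2A, and Mns1 (0.46), a protein of cilia and flagella, complete the 10. The gaps between the lowest Mki67-high and the highest Mki67-low tumour were as narrow as 8.66 on both sides for Cep55 and 10.06 against 10.05 for Cip2a.

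On the other side, the 5 genes of smallest p among the lower ones had a limma adjusted p of 0.061 each. Cst3, the secreted protease inhibitor cystatin C that astrocytes and microglia make in quantity, ran from 11.53 over 11.82 to 12.14 in Mki67-high tumours. In Mki67-low tumours it ran from 11.90 over 12.53 to 12.70 (difference -0.57, SE 0.12), so that the groups overlapped at their edges. Flrt1, an adhesion and guidance protein of nerve cells, had a median of 7.87 in Mki67-high tumours and 8.52 in Mki67-low tumours (difference -0.54, SE 0.10). Snx15, a sorting nexin of endosomes, had 8.96 in Mki67-high and 9.38 in Mki67-low tumours (difference -0.37, SE 0.08), Aldh4a1, a mitochondrial enzyme of proline breakdown, 6.45 in Mki67-high and 6.79 in Mki67-low tumours (-0.39, SE 0.08), and the histone H2B gene H2bu2 6.67 in Mki67-high and 6.97 in Mki67-low tumours (-0.40, SE 0.08). Histone genes share sequence, so that the H2bu2 probe may read other copies.

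**Figure D2:**
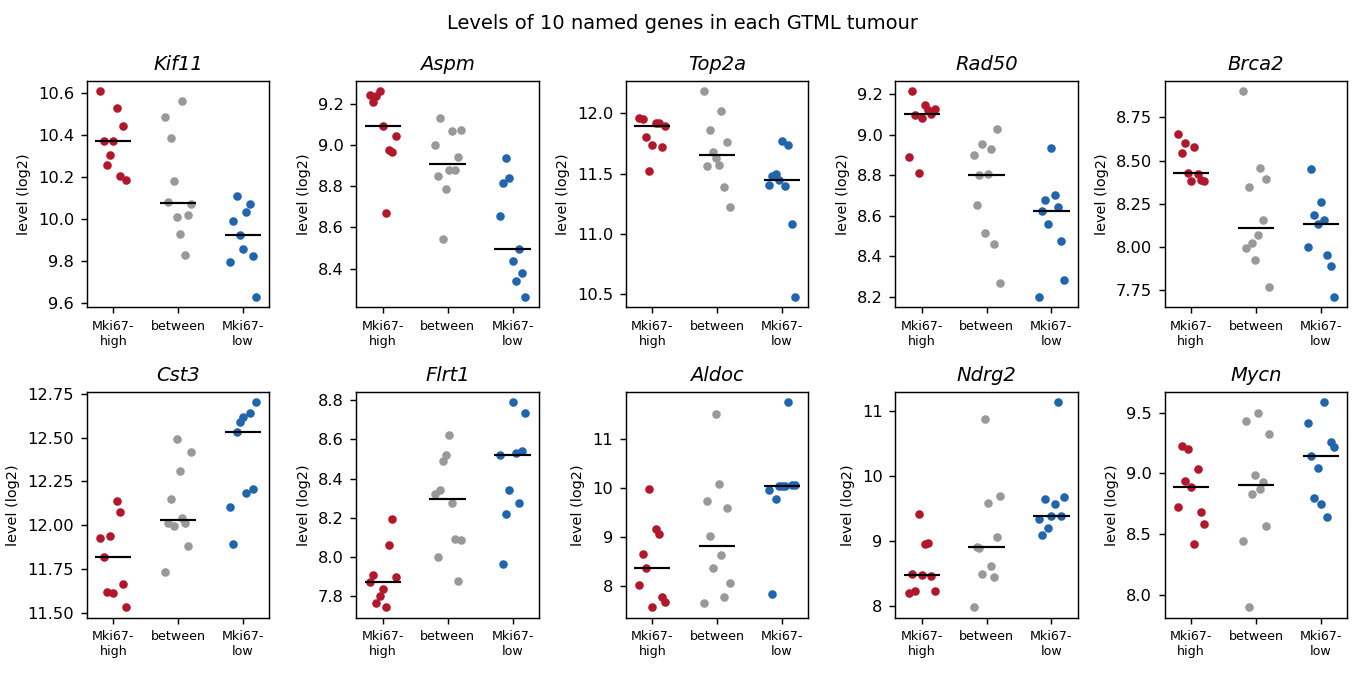
Log2 level (vertical axes) of 10 named genes in each Mki67-high tumour (left), each tumour between the extremes (middle) and each Mki67-low tumour (right), with a bar at the median. Kif11 runs from 10.18 in Mki67-high tumours and reaches 10.11 in Mki67-low tumours, while the 2 groups overlap for the other 9 genes.

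Genes of mitosis were higher by sign throughout. Of 68 listed, 61 were measured and all of these passed the filter on low values. All 61, among them spindle kinesins, kinetochore proteins and mitotic kinases, had a positive difference, with a median of 0.42 and a range from 0.07 to 0.65, against a median of -0.0017 over all genes. At an unadjusted p of 0.05 there were 57 of 61 higher (8.42% of all genes) and 0 lower. Without tumour 18 the median was 0.33, still with 61 of 61 positive. The mean level of the list ran from 9.66 over 9.88 to 10.04 in Mki67-high tumours and from 8.82 over 9.55 to 9.68 in Mki67-low tumours. Aspm, which holds the spindle poles together and is mutated in microcephaly, had a median of 9.09 in Mki67-high tumours and 8.50 in Mki67-low tumours (difference 0.50, SE 0.10, limma adjusted p = 0.061). Top2a, the topoisomerase that untangles chromosomes before they part, ran from 11.52 over 11.89 to 11.96 in Mki67-high tumours and from 10.48 over 11.44 to 11.77 in Mki67-low tumours (difference 0.46, SE 0.13, limma adjusted p = 0.117).

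DNA replication and repair went the same way. All 37 tested replication genes of 38 listed had a positive difference (median 0.29, or 0.22 without tumour 18). At an unadjusted p of 0.05 there were 24 of 37 higher (8.42% of all genes). Pole, the catalytic subunit of the leading-strand polymerase, had a median of 10.07 in Mki67-high tumours and 9.67 in Mki67-low tumours (difference 0.48, SE 0.13). Mcm10, which helps to start the replication fork, had 9.44 in Mki67-high and 9.08 in Mki67-low tumours (0.44, SE 0.11). Mcm2, a subunit of the replicative helicase, differed by 0.32 (SE 0.11), and Pcna, the sliding clamp, by 0.13 (SE 0.07) with medians of 12.96 in Mki67-high and 12.78 in Mki67-low tumours. All 23 tested genes of DNA repair and checkpoints, of 28 listed, were positive as well (median 0.44, or 0.36 without tumour 18). Of these, 20 were higher at an unadjusted p of 0.05 (8.42% of all genes). Brca2, a gene of DNA break repair that is mutated in inherited breast cancer, had medians of 8.43 in Mki67-high and 8.14 in Mki67-low tumours (difference 0.40, SE 0.08, limma adjusted p = 0.061).

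The genes that decide on entry into the cycle were more mixed. Of 24 cyclins, kinases, E2F and pocket proteins of G1 and S, 20 had a positive difference (median 0.24). At an unadjusted p of 0.05 there were 11 higher (8.42% of all genes). The repressors E2f7 and E2f8, which end the E2F wave, differed by 0.40 (SE 0.08) and 0.54 (SE 0.11), both with a limma adjusted p of 0.061. E2f1, an activator, differed by 0.24 (SE 0.10, limma adjusted p = 0.221). The D cyclins had differences of opposite sign. Ccnd1 had a median of 10.91 in Mki67-high and 10.61 in Mki67-low tumours (difference 0.33, SE 0.16, or 0.19 without tumour 18), and Ccnd2 had 11.74 in Mki67-high and 12.12 in Mki67-low tumours (difference -0.21, SE 0.11), with limma adjusted p of 0.292 and 0.322. Of 19 inhibitors of cyclin-dependent kinases and antiproliferative genes, 14 had a negative difference (median -0.07). Cdkn1a, Cdkn1b and Cdkn1c, the inhibitors p21, p27 and p57, differed by -0.18 (SE 0.31), -0.11 (SE 0.10) and -0.14 (SE 0.08), and Cdkn2c (p18) by 0.27 (SE 0.27). For Cdkn1a the difference was -0.07 without tumour 18. None of these 4 passed, with limma adjusted p of 0.34 or above. Cdkn3, a phosphatase that acts on cyclin-dependent kinases and is itself made in cycling cells, differed by 0.46 (SE 0.12, limma adjusted p = 0.0959). Ndrg2, a gene of differentiated astrocytes, differed by -1.0 (SE 0.23, limma adjusted p = 0.077), with medians of 8.48 in Mki67-high and 9.38 in Mki67-low tumours.

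Supply lines of a growing cell had smaller differences. Nucleotide synthesis was positive in 18 of 19 genes (median 0.19, or 0.12 without tumour 18), with Ppat, the first committed enzyme of purine synthesis, at 0.35 (SE 0.10) and the salvage kinase Dck at 0.23 (SE 0.08). Chromatin and histone chaperone genes were positive in 26 of 28 (median 0.16). Uhrf1, which carries DNA methylation through replication, differed by 0.33 (SE 0.10), Supt16, a subunit of the FACT chaperone, by 0.29 (SE 0.10), and Ezh2, the Polycomb methyltransferase, by 0.14 (SE 0.09). Genes of ribosome biogenesis that Myc proteins induce were positive in 29 of 30 (median 0.15), such as Odc1, the polyamine enzyme, at 0.24 (SE 0.09) and the helicase Ddx21 at 0.25 (SE 0.10). Cytosolic ribosomal proteins (2 of 15 positive, median -0.05, or -0.10 without tumour 18) and the mitochondrial respiratory chain (13 of 28, median -0.01, or -0.03 without it) lay near the median of all genes.

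**Figure D3:**
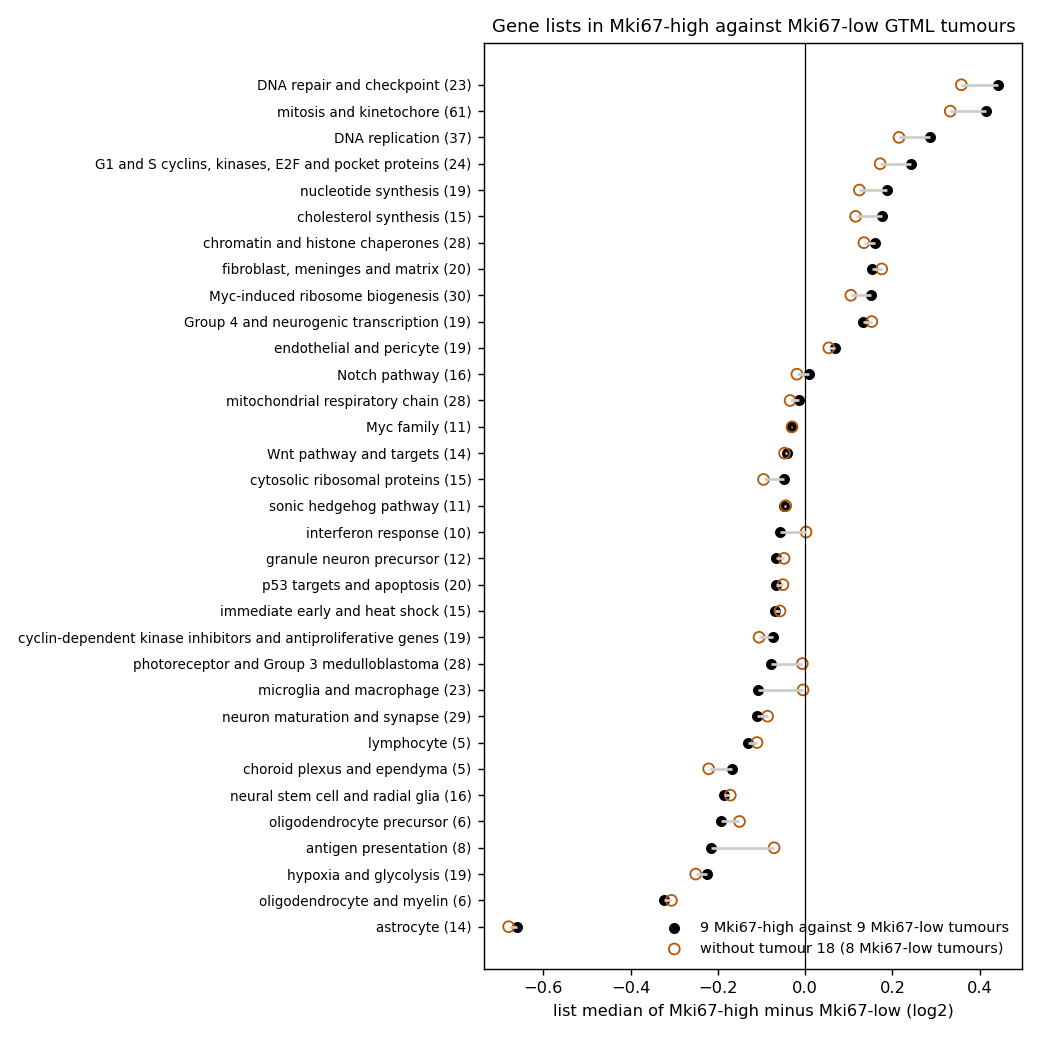
Median over the tested genes of each list (vertical axis, with the number of genes tested) of the difference Mki67-high minus Mki67-low in log2 units (horizontal axis), for 9 against 9 tumours (filled) and without tumour 18 (open). Mitosis at 0.42 and DNA repair at 0.44 are at the top and astrocyte at -0.66 is at the bottom, while antigen presentation moves from -0.22 to -0.07 without tumour 18.

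Mouse Mycn and the genes of tumour identity had differences of either sign. Mycn ran from 8.42 over 8.89 to 9.23 in Mki67-high tumours and from 8.64 over 9.14 to 9.59 in Mki67-low tumours (difference -0.24, SE 0.13, limma adjusted p = 0.35), with wide overlap between the groups. The probe is that of the mouse gene, and whether it also reads the human transgene could not be settled from the labels. Myc differed by -0.16 (SE 0.18), and the 11 genes of the Myc family had a median of -0.03. Otx2 and Crx, homeobox factors of photoreceptors and of Group 3 medulloblastoma, were high throughout. Otx2 had medians of 13.15 in Mki67-high and 13.05 in Mki67-low tumours (difference 0.04, SE 0.07), and Crx 12.58 in Mki67-high and 12.75 in Mki67-low tumours (-0.14, SE 0.10). Neurod1, a factor of young neurons, differed by -0.02 (SE 0.07, or -0.0093 without tumour 18), and Gli1, the readout of sonic hedgehog signalling, by -0.10 (SE 0.07) at levels between 6.25 and 6.76. The photoreceptor list had 10 of 28 genes positive (median -0.08, or -0.0064 without tumour 18), with Prph2, a protein of the photoreceptor outer segment, at -0.70 (SE 0.28), or -0.51 without tumour 18. None of these genes passed the test, which does not show that they are equal.

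Astrocyte genes were lower in Mki67-high tumours by sign without exception. All 14 tested members of 15 listed had a negative difference (median -0.66, range -1.48 to -0.32), 13 of 14 at an unadjusted p of 0.05 (9.24% of all genes), and the median was -0.68 without tumour 18. When the tumours were ranked by Top2a the median was -0.27, with 1 of 14 positive. The mean level of the list ran from 8.29 over 8.53 to 9.21 in Mki67-high tumours and from 8.49 over 9.31 to 10.21 in Mki67-low tumours. Aldoc, the aldolase of astrocytes, ran from 7.57 over 8.37 to 9.99 in Mki67-high tumours and from 7.85 over 10.04 to 11.76 in Mki67-low tumours (difference -1.48, SE 0.39, limma adjusted p = 0.101). Fgfr3, a growth factor receptor of astrocytes and their precursors, had medians of 7.53 in Mki67-high and 8.04 in Mki67-low tumours (difference -0.43, SE 0.10). In the fit with the mean of other cell types as a covariate, which itself holds the astrocyte list, the median was -0.31. The part of astrocyte content in these differences was not tested beyond that fit. Genes of neural stem cells and radial glia had 10 of 16 negative and 6 positive (median -0.19, range -0.78 to 0.13). The 2 of smallest p were Slc1a3, a glutamate transporter of glia, at -0.78 (SE 0.26) and Hes5, a target of Notch, at -0.36 (SE 0.11). Neither passed (limma adjusted p = 0.154 and 0.137). Tumour 9, the highest for Mki67, had the highest Slc1a3 level of the 28 tumours (9.22). The Slc1a3 slope over the 28 did not pass (-0.70, limma adjusted p = 0.303).

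Hypoxia and glycolysis genes were negative in 18 of 19 (median -0.22, or -0.25 without tumour 18), but 11 of 19 were positive (median 0.03) when the tumours were ranked by Top2a. Slc2a1, the glucose transporter Glut1, ran from 9.65 over 10.21 to 10.43 in Mki67-high tumours and from 10.06 over 10.65 to 11.09 in Mki67-low tumours (difference -0.50, SE 0.14, limma adjusted p = 0.114). P4ha1, a collagen hydroxylase induced by low oxygen, differed by -0.31 (SE 0.14). Markers of vessels were divided, with 11 of 19 positive (median 0.07). Cdh5, the cadherin of endothelial junctions, differed by 0.52 (SE 0.18) and Emcn, an endothelial surface mucin, by 0.70 (SE 0.26). They had the smallest p of the list, and neither passed (limma adjusted p = 0.171 and 0.18). Differences in the list ran from -0.45 to 1.26, with 8 negative. The list mean had r = 0.15 with Mki67 over the 28 tumours. Microglia and macrophage genes had 19 of 23 negative (median -0.11), but the median was -0.0047 without tumour 18, and the mean level of the list had the higher median in Mki67-high tumours (8.27, against 7.99 in Mki67-low tumours). Aif1 and Csf1r, which mark these cells, differed by -0.11 (SE 0.14) and -0.13 (SE 0.18), the second by -0.06 without tumour 18. Itgam, an integrin of the same cells, differed by -0.41, or -0.24 without tumour 18. The antigen presentation median of -0.22 was -0.07 without that tumour, and that of the interferon list, -0.06 with it, was 0.0022. Neuron and synapse genes had 19 of 29 negative (median -0.11), although Cplx2, a regulator of synaptic release, differed by 0.49 (SE 0.18). Group 4 and neurogenic transcription genes had 12 of 19 positive and 7 negative (median 0.13, range -0.34 to 0.68). Among them Nhlh1, a factor of newborn neurons, differed by 0.52 (SE 0.19). Neither Cplx2 nor Nhlh1 passed (limma adjusted p = 0.182 and 0.178).

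The ranking marker moved several lists. Top2a in place of Mki67 kept 6 of the 9 high and 7 of the 9 low tumours, and the values that follow are Top2a-high minus Top2a-low. The medians of DNA replication (0.49), nucleotide synthesis (0.37), G1 and S genes (0.37) and ribosome biogenesis (0.24) were larger than with Mki67. Microglia and macrophage genes had 0 of 23 positive (median -0.47) and antigen presentation 0 of 8 (median -0.46), both further below 0 than with Mki67. The photoreceptor median was -0.32, that of neurons and synapses -0.17 and that of stem cells and radial glia -0.08, and the mitochondrial respiratory chain was positive (0.06).

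Over all 28 tumours, with Mki67 as a continuous measure, single genes did pass the test. A slope is the difference in the log2 level of a gene per log2 unit of Mki67. Of 11664 genes tested with limma, 429 (3.68%) rose with Mki67 and 183 (1.57%) fell at an adjusted p of 0.05. This fit shares 18 arrays with the comparison of extremes and is not independent of it. Without tumour 18 it left 13 genes that rose (0.112%) and 8 that fell (0.0687%) of 11638, all of them among the 612 called before. All 610 called genes that were still tested kept the sign of their slope. The fit that called them holds every array of this one, so that the kept signs are no independent check. The median absolute correlation of the called genes with Mki67 was 0.49 without tumour 18, against 0.60 with it. Leaving out tumour 9, the highest, gave 626 and 680 genes instead, and leaving out tumour 21 gave 277 and 86. When arrays were centred on their medians, 86.7% of the calls were rises, and after quantile normalization 76.7%, against 70.1% with the values as deposited.

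**Figure D4:**
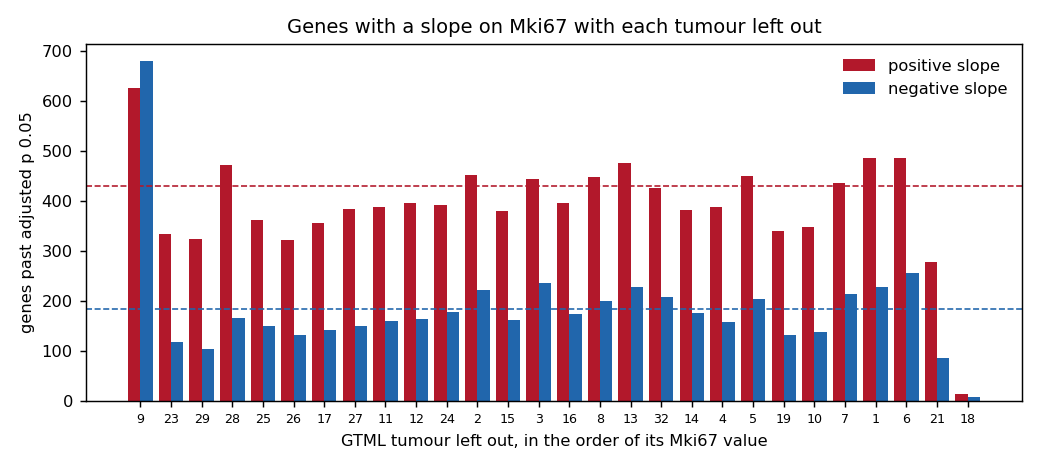
Number of genes past an adjusted p of 0.05 (vertical axis) with a positive or negative slope on Mki67 when each tumour is left out (horizontal axis, tumours from the highest Mki67 to the lowest). Dashed lines mark 429 and 183 genes with all 28 tumours, and without tumour 18 there are 13 and 8.

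Mitosis again led, with 54 of 61 genes that rose with Mki67 (3.68% of all genes) and 5 of 61 without tumour 18. Hmmr, a spindle protein that binds Tpx2, had a slope of 1.04 (SE 0.17, limma adjusted p = 0.00118), Nek2, a kinase that splits the centrosomes, 1.04 (SE 0.20), the kinetochore kinesin Cenpe 0.93 (SE 0.18), and Cdc25c, the phosphatase that starts mitosis, 0.91 (SE 0.15). Without tumour 18 these slopes were 0.90, 0.72, 0.69 and 0.66 and did not pass. Top2a had a slope of 0.82 (limma adjusted p = 0.00169), or 0.59 without tumour 18. In DNA repair, 17 of 23 rose, among them Fanci (0.92) and Brip1 (0.88) of the Fanconi anaemia pathway, the checkpoint kinase Chek2 (0.91) and Brca1 (0.83). In DNA replication, 17 of 37 rose, among them Dtl (0.94), which marks replication factors for destruction, Pole (0.87), the primase subunit Prim2 (0.83) and the helicase subunit Mcm3 (0.82). Without tumour 18 the slope was 0.58 for Chek2, 0.59 for Dtl, 0.55 for Prim2 and 0.48 for Mcm3. Neither list kept a called gene without that tumour, although 23 of 23 and 36 of 37 slopes stayed positive.

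Among genes of G1 and S, 9 of 24 rose, against 3.68% of all genes, a share that also stands for the lists that follow. Mybl2 (B-Myb), the activator of mitotic genes, had a slope of 0.75, Ccnd1 0.72, Cks2 0.66, E2f8 0.62 and E2f1 0.43. Without tumour 18 the slope was 0.36 for Ccnd1, 0.36 for Cks2 and 0.25 for E2f1, and no gene of the list passed (0 of 24). Nucleotide synthesis gave 6 of 19, with thymidylate synthase Tyms at 0.71, Ppat at 0.55, Ctps at 0.52 and the ribonucleotide reductase subunit Rrm1 at 0.47, but 0 of 19 without tumour 18 (Tyms 0.47, Ctps 0.31). Chromatin genes gave 10 of 28, with the helicase Hells at 0.75, the methyltransferase Suv39h2 at 0.62, Supt16 at 0.57, Hmgb3 at 0.50 and Ezh2 at 0.40, but 0 of 28 without tumour 18 (Hells 0.44). Ribosome biogenesis gave 7 of 30, with Rrs1 at 0.74, Heatr1 at 0.56, Lyar at 0.50 and Ddx21 at 0.49, but 0 of 30 without tumour 18 (Rrs1 0.44). The slopes that stayed positive without it numbered 19 of 24, 18 of 19, 26 of 28 and 28 of 30 in these 4 lists. Mcm2 rose by 0.57 per unit (0.38 without tumour 18, not past the test), and Pcna, with a slope of 0.19 (0.11 without tumour 18), did not pass (limma adjusted p = 0.18).

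Single genes of other groups passed over the 28 tumours. Ndrg2 fell with a slope of -1.34 (SE 0.39), Slc2a1 with -0.77 (SE 0.18), Fgfr3 with -0.55 (SE 0.17), the folate receptor Folr1 of choroid plexus with -0.51 (SE 0.15) and Hes5 with -0.50 (SE 0.14), while Cdkn3 rose with 0.60 and Idi1, an enzyme of cholesterol synthesis, with 0.69. None of these 7 passed without tumour 18 (limma adjusted p from 0.10 for Slc2a1 to 0.331 for Cdkn3), where the slopes were -1.66 for Ndrg2, -0.84 for Slc2a1, -0.65 for Fgfr3, -0.54 for Folr1, -0.53 for Hes5, 0.42 for Cdkn3 and 0.56 for Idi1. Fgfr3 was the only one of 14 astrocyte genes to pass, although all 14 slopes were negative with and without tumour 18. With the mean of other cell types as a covariate, 131 of the 11664 genes rose and 34 fell, among the risers 35 of 61 mitosis genes and 12 of 23 repair genes. The median astrocyte slope was -0.18 in that fit, whose covariate holds the astrocyte list, against -0.81 without the covariate.

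The 10 genes whose levels were most like that of Mki67, by Pearson r over the 28 tumours, were picked by r, so that the values are a description. Pold3, a subunit of DNA polymerase delta, had r = 0.85 and Cenpj, which builds centrioles, r = 0.82. Tpx2, which activates Aurora A on the spindle, had r = 0.81, Ranbp1 of the Ran cycle and Knstrn r = 0.80 each, the chromosome-bound kinesin Kif22 r = 0.80 and Aspm r = 0.79. Rhno1, a partner of the checkpoint clamp, and the kinesins Kif4 and Kif15 had r = 0.78, 0.78 and 0.77. Without tumour 18 the 10 values were between 0.65 and 0.76. Their slopes were smallest for Ranbp1 (0.40) and Pold3 (0.48) and largest for Kif4 and Kif15 (0.88 each), with 0.61 for Cenpj, 0.62 for Rhno1, 0.68 for Kif22, 0.74 for Tpx2, 0.75 for Aspm and 0.82 for Knstrn. Of the 10, 7 kept their call without tumour 18 (Pold3, Cenpj, Tpx2, Knstrn, Kif22, Aspm and Kif15), and so did Kif11 with a slope of 0.68.

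The 10 genes most opposite to Mki67, picked by r in the same way, were Tsc22d4 (r = -0.74), H2bu2 (-0.72), the G protein subunit Gng7 (-0.71), Adck2 (-0.70), Flrt1 (-0.70), the interleukin receptor chain Il17rc (-0.69), Rhpn1 (-0.69), the phosphatase Ssh3 (-0.69), Fam214b (-0.68) and Grina (-0.67). Their slopes ran from -0.30 for Adck2 to -1.14 for Grina. Without tumour 18 the 10 values of r were between -0.72 and -0.53. Without tumours 18 and 9, r was -0.29 for Grina, -0.33 for Rhpn1 and -0.38 for Adck2. For the others it was then between -0.68 and -0.45. The Grina slope was -0.46 without these 2 tumours and did not pass (limma adjusted p = 0.391). Without tumour 18, Tsc22d4, H2bu2 and Gng7 kept their call, with slopes of -0.70, -0.65 and -0.74.

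Relations with Mki67 were also computed for 34 list means and 19 single genes, 53 in all, by permutation with 100000 resamples and two-sided p. By Pearson r 14 passed at an adjusted p of 0.05, by Spearman rho 9, and by both 8, but only 3 of the Pearson relations passed without tumours 18 and 9, the 2 farthest from the median of Mki67. The mean of the mitosis list had r = 0.76 (permutation adjusted p = 0.000397, unadjusted p = 3e-05) and rho = 0.71 (adjusted p = 0.00371), with r = 0.61 without those 2 tumours (adjusted p = 0.0307). The chromatin list had r = 0.77 and rho = 0.64, with r = 0.61 without them (adjusted p = 0.0307), and Top2a had r = 0.73 and rho = 0.66, with r = 0.56 without them (adjusted p = 0.0477). For DNA replication r was 0.62 (permutation adjusted p = 0.00766), with 0.40 without them (adjusted p = 0.199, unadjusted p = 0.0451) and also 0.40 without tumour 18 alone (adjusted p = 0.172), so that the call, though not the sign, was lost without that tumour. The astrocyte list had r = -0.50 (adjusted p = 0.0259) and rho = -0.56 (adjusted p = 0.0208), with r = -0.48 without them (adjusted p = 0.0833). In the 10 tumours between the extremes, where Mki67 spans little, r was -0.02 for the astrocyte list and 0.38 for the mitosis list. The stem cell and radial glia list had r = -0.59 (permutation adjusted p = 0.00734) and -0.42 without them (adjusted p = 0.153).

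**Figure D5:**
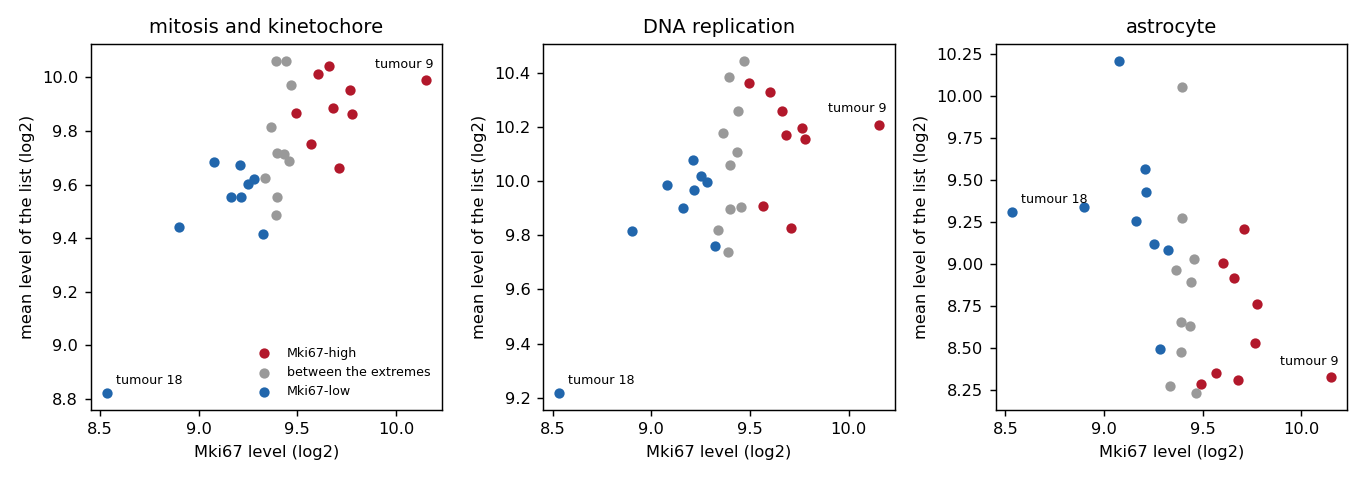
Mean log2 level over the genes of the mitosis, DNA replication and astrocyte lists (vertical axes) against the log2 level of Mki67 (horizontal axes) in 28 GTML tumours, coloured as Mki67-high, between the extremes and Mki67-low. Tumour 18 lies lowest in the first 2 panels, at 8.82 and 9.22, and inside the cloud at 9.31 in the third.

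Tumours that the comparison of extremes did not use gave a divided picture. Of the 942 genes higher at an unadjusted p of 0.05 that could be fitted in the 10 tumours between the extremes, 79.4% had a positive slope on Mki67 there, against 54.7% of all genes. Of the 919 lower genes, 48.4% had a negative slope there, against 45.3% of all genes. Mki67 spans little in those 10 tumours, and 0 genes passed the test in them. In the 9 orthotopic tumours, with origin as a factor, 45.2% of the higher genes had a positive slope (52.6% of all genes) and 36.3% of the lower genes a negative one (47.4%). Mki67 spans little within an origin there too, with 3 arrays each. It ran from 10.54 to 10.94 in cerebellar tumours of embryonic day 16 and from 9.22 to 9.68 in those of postnatal day 0. In forebrain tumours it ran from 9.43 to 9.55. These slopes are therefore imprecise. No gene passed there (0 of 11913 with limma, 0% in each direction, and 731 or 6.14% at an unadjusted p of 0.05). Of the mitosis list, 36 of 61 slopes were positive in the orthotopic tumours (median 0.16), and of the replication list 26 of 37 (median 0.22). DNA repair had 11 of 23 positive (median -0.02), nucleotide synthesis 7 of 19 (-0.07), chromatin 14 of 28 (-0.07) and ribosome biogenesis 8 of 30 (-0.35), against a median of 0.05 over all genes, while 4 of 14 astrocyte slopes were positive (median -1.33). The RNA of these tumours was labelled after another protocol than that of the GTML tumours, so that tumour kind and protocol cannot be told apart.

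The promoters of the genes that rose with Mki67 were read for the elements described above, from RefSeq (GRCm38.p6), as the first promoter listed for each gene, from 250 bases before to 50 bases after the start. The letters searched on both strands were TTTGAA for the CHR, CCAAT for the CCAAT box that often stands before it, and TTTCCCGC or TTTGGCGC for E2F. Of 429 genes that rose, 355 had a promoter, and 27.3% of them held the CHR letters, against 10.6% of the 142 promoters of genes that fell, 11.6% of the 9379 of genes tested and 18.1% of all 27025. In the mitosis list 35 of 51 promoters held it (68.6%), and 68.6% held the CCAAT letters (38.5% of genes tested, 37.9% of all). In the replication list the E2F letters stood out by count, in 41.4% of 29 promoters against 3.0% of genes tested and 1.6% of all, with the CHR letters in 20.7%. Of 11 astrocyte promoters, 0 held the CHR or E2F letters and 54.5% the CCAAT letters. Of the promoters of genes that rose, 47.6% held the CCAAT letters and 9.9% the E2F letters, against 43.0% and 0.7% of those of genes that fell. The list shares follow from the make-up of the lists and not from these tumours. They also overlap with the share of the genes that rose, which include 54 of the 61 mitosis genes. All these shares describe letters in a window of 300 bases and not bound sites. The promoters of Mki67, of Kif11 as the gene of smallest p, and of Pold3, Ranbp1, Kif22 and Aspm from the genes most like Mki67 are printed with the matched letters in capitals:

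Mki67 (chr7:135716330-135716629, minus strand): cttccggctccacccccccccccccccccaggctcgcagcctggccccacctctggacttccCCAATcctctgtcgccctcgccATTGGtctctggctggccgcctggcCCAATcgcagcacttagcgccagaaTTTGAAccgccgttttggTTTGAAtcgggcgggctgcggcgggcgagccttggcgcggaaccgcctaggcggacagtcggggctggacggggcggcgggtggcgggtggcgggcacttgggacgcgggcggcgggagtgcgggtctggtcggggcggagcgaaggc
Kif11 (chr19:37376132-37376431, plus strand): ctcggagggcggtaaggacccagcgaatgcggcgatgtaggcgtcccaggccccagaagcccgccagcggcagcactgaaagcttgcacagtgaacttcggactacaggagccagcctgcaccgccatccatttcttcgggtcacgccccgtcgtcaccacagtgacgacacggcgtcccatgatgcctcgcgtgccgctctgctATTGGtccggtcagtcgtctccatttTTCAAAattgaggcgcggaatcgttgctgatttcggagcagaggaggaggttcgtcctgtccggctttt
Pold3 (chr7:100121453-100121752, minus strand): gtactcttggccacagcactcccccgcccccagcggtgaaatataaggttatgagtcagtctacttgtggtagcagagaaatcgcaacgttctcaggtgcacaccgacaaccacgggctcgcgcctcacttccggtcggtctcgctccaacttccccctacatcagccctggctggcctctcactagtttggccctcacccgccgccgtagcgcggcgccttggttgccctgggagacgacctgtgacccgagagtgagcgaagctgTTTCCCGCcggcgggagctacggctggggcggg
Ranbp1 (chr16:18248645-18248944, minus strand): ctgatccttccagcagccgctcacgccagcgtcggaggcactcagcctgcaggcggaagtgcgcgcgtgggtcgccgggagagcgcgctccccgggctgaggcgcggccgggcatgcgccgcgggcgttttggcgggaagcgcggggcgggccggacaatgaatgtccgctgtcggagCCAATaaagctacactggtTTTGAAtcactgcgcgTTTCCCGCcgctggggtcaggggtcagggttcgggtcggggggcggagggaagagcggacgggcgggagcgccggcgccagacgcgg
Kif22 (chr7:127042371-127042670, minus strand): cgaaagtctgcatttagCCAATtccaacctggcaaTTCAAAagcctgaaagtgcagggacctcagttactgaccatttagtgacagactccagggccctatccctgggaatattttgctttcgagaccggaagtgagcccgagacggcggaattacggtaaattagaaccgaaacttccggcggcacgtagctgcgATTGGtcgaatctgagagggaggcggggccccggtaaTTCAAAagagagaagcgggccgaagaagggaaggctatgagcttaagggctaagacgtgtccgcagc
Aspm (chr1:139454523-139454822, plus strand): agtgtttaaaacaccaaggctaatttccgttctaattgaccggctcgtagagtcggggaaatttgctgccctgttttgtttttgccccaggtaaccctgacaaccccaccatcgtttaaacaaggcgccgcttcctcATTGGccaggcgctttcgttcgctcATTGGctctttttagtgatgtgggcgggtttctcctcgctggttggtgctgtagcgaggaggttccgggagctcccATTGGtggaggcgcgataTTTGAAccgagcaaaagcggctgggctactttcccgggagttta

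Mki67 itself holds the CHR letters 2 times and the CCAAT letters 3 times. Kif11 and Kif22 have a CCAAT box followed by the CHR letters just before the start, and Kif22 has another such pair far upstream. Ranbp1 holds all 3 kinds of element next to each other, and Aspm has 3 CCAAT boxes and a CHR just after the start. Pold3 has the E2F letters alone, after the start. The promoters of Ccdc18, Gen1, Alpl, Cenpj and Knstrn held none of these letters.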

How the data were processed

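RNA of 56 mouse samples was hybridised to 1 array each, and 28 GTML tumours were ranked here. The authors deposited 1 table of log2 values for 17831 probes, made with RMA and the mm9 build per the submitters' processing notes. The raw scanner files were not used here. Of the probes, 15620 had 1 gene symbol, 1370 several and 841 none, and only the first kind was used, with the probe of highest mean for each of 15224 genes. Blank cells (3.12%) stayed missing in the fits. A gene was tested where 9 or more of the arrays fitted lay above 6.30, which is percentile 25 of the table (3 or more in the orthotopic fit). The 9 highest and 9 lowest tumours were compared with limma 3.58.1 in R 4.3.3, two-sided with Benjamini-Hochberg adjustment at 0.05, and slopes on Mki67 were fitted over the 28 tumours and, with origin as a factor, over 9 orthotopic tumours. Correlations used permutation with 100000 resamples, and array measures an exact permutation test (scipy 1.17.1). Mki67 chose the groups and has no p of its own. It was taken out of the adjustment after a first run that kept it, and both counts are given.

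The members, the 34 gene lists and the tests were chosen with earlier results of these data known. Named genes are the 5 of smallest p in each direction, up to 4 called genes of each list (or the 2 of smallest p in a list with none), the 10 genes most like and the 10 most opposite to Mki67, and a fixed set of tumour and cell cycle genes. From the names this gives, those printed with values were picked after their values and their behaviour under the alternatives were seen, and the promoter letters were also chosen after the data were seen. Of 782 list genes, 668 were measured. The labels call the tumours biological replicates and tie none to a batch, so none was fitted. Tumour numbers were not spread evenly over the sides. Mki67-high tumours were numbers 9, 11, 17, 23, 25, 26, 27, 28 and 29. Mki67-low tumours were numbers 1, 4, 5, 6, 7, 10, 18, 19 and 21. The labels do not say what the numbers follow, and their part in the differences was not tested. The fits were tested on simulated data with known changes. Alternatives were other filters, scalings, variance models, ranking markers, sizes of the extremes, a covariate for other cell types, and leaving out single tumours.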

Additional observations from a re-analysis of the deposited data

Results flagged for a closer look

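In each group of 9 tumours the highest and the lowest value were set against the nearest other tumour by Dixon's criterion, which chance passes in about 1 in 20 groups. Of 164 groups examined, 25 had such a value, Mki67 in the Mki67-high tumours among them. Mki67 chose the groups, so that the rate of 1 in 20 does not apply to it. The rate may also not hold for genes picked by their values.

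Tumour 18 accounted for 15 of them, all on the Mki67-low side. It was the lowest for Ccdc18 (5.55, nearest other 6.21), Ccnd1 (9.41, nearest other 10.39), Kif22 (8.47, nearest other 8.98), Kif4 (7.87, nearest other 8.57) and Knstrn (8.95, nearest other 9.75). It was also the lowest for Mcm2 (10.22, nearest other 10.75), Pold3 (9.78, nearest other 10.11) and Tpx2 (9.25, nearest other 9.73), and the highest for Grina (11.46, nearest other 10.81), a membrane protein of nerve cells. Its mean levels stood below the rest for DNA replication (9.22, nearest other 9.76), mitosis (8.82, nearest other 9.41), nucleotide synthesis (9.97, nearest other 10.42) and DNA repair (8.26, nearest other 8.76). The same held for chromatin (10.52, nearest other 10.76) and Myc-induced ribosome biogenesis (10.00, nearest other 10.31).

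On the Mki67-high side, tumour 9 was the highest for Mki67 (10.15, nearest other 9.78) and Cdkn1b (10.31, nearest other 9.92). It was the lowest for Grina (8.60, nearest other 9.79) and for the mean of the neuron list (8.44, nearest other 8.94). Tumour 26 was the lowest for Aspm (8.67, nearest other 8.97), tumour 28 the lowest for Gen1 (8.95, nearest other 9.41), tumour 29 the highest for Myc (8.41, nearest other 7.497) and tumour 25 the highest for the mean of the Notch list (8.17, nearest other 8.00). Among Mki67-low tumours, tumour 1 was the lowest for the granule neuron precursor list (7.29, nearest other 7.80), and tumour 6 the highest for the oligodendrocyte and myelin list (9.43, nearest other 7.59).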

How the results depend on the processing

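No paired analysis was possible because both sides are tumours of 1 labelled group with their own numbers. Between the extremes, counts of genes higher and lower in Mki67-high tumours were 20 and 3 with a stricter filter, 101 and 51 with array weights, 17 and 7 with the tumours between the extremes in the fit, 0 and 2 for 6 against 6, 711 and 241 when ranked by Top2a, 925 and 392 when ranked by the mean of the mitosis and DNA replication lists, which uses list genes, and 3 and 0 with Mki67 kept in the adjustment. Leaving out single tumours gave 0 to 38 higher and 0 to 20 lower (38 and 20 without tumour 5, 5 and 2 without tumour 19, and at most 2 and 0 otherwise). Positive and negative slopes numbered 264 positive with array weights, 131 and 34 with other cell types as a covariate, 0 and 0 in the 10 tumours between the extremes alone, 3645 and 2946 over all 32 tumours, and 8 and 4 without tumours 18 and 9. Negative slopes numbered 92 with a stricter filter, 101 after quantile normalization and 88 after centring. Without single tumours there were 13 to 626 positive and 8 to 680 negative slopes, with 118 and 104 negative ones without tumours 23 and 29, and 86 without tumour 21. In orthotopic tumours 0 to 1 genes passed. Of 53 correlations, 14 passed, against 3 without tumours 18 and 9 and 5 without tumour 18. Why these counts moved was not tested.

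Of 139 genes named or printed, 53 changed sign in at least 1 setting (102 of 10177 values). The genes printed were picked after these reversals were seen, so that the counts below are no measure of stability. Among the genes printed, with 6 against 6, the difference was 0.10 for Aif1, 0.10 for Cdkn1a, 0.081 for Csf1r and 0.0155 for Neurod1. With all 32 tumours ranked, it was 0.16 for Aif1, 0.22 for Ccnd2, -0.0548 for Cdh5, 0.42 for Crx, 0.26 for Mycn and 0.11 for Neurod1. Otx2 differed by -0.009 with 14 against 14, by -0.0148 when ranked by Top2a and by -0.0099 when ranked by the list mean, which gave 0.005 for Cdkn1c. Csf1r differed by 0.0235 with the covariate, and Neurod1 by -0.0425 to 0.0113 when single tumours were left out, above 0 without tumour 11 (0.0036) and without tumour 1 (0.0113). In the 10 tumours between the extremes, slopes were -0.83 for Aspm, 1.64 for Flrt1, 0.76 for H2bu2, -0.42 for Hmgb3, -0.32 for Kif15 and -0.73 for Rhno1. Over all 32 tumours they were 0.0202 for Hes5 and 0.0817 for Rhpn1. Of the other values of the genes printed, 1947 differences and 2089 slopes kept their direction and their side of the threshold, 162 differences passed under an alternative, and 331 slopes no longer passed. List medians changed sign after quantile normalization for granule neuron precursor (0.0041), interferon (0.0107) and Wnt (0.0278), with the covariate for oligodendrocyte (0.0881) and interferon (0.0417), when ranked by Top2a for the mitochondrial chain (0.0636), fibroblast (-0.1752), hypoxia (0.0344) and Notch (-0.1059), and without tumour 18 for interferon (0.0022) and Notch (-0.0187). Signal over background was not among the values used, so that the precision of genes just above 6.30 is unknown.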
